A study of Mus musculus with 12 samples.

Results

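The proteasome is the large protease that degrades ubiquitin-tagged proteins, and its genes were followed in mouse primary bone marrow-derived macrophages, which the labels give as wild type. The genes were chosen by symbol: every Psma, Psmb, Psmc, Psmd, Psme, Psmf or Psmg gene with a number, without the immunoproteasome genes Psmb8, Psmb9 and Psmb10. This gave 45 of the 21899 genes in the deposited table, of which 33 encode subunits of the 26S particle. The other members encode assembly chaperones, activators and an inhibitor. Read counts per gene came from RNA sequencing of 12 libraries in 4 groups of 3: macrophages induced by PgLPS and CS-PA/CNP together, by PgLPS alone, by CS-PA/CNP alone, and control macrophages. The labels spell out neither abbreviation and give no dose, time, strain, sex or age. The library number used below is the number in the column name, and the main tests do not pair libraries across groups by it.

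The 26S particle is a barrel, the 20S core, capped by the 19S regulatory particle. The core has outer rings of alpha subunits, which gate the channel, and inner rings of beta subunits, of which Psmb5, Psmb6 and Psmb7 carry the protease sites. The regulatory particle has a base, where 6 ATPases unfold the substrate, and a lid, which removes its ubiquitin. Other caps, such as PA28, bind the same core, and in activated macrophages the immunoproteasome subunits can replace the 3 catalytic beta subunits.

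The libraries held 14992707 to 20082900 reads. Of the 45 genes, 44 passed the filter on low counts. The exception was Psmb11, the catalytic subunit of the thymus form, with 0 to 3 reads in any library. The macrophage markers Adgre1, Csf1r, Cd68, Itgam, Fcgr1 and Mertk were all present, and their summed level was 10191 to 10474 CPM with both agents, 10597 to 10794 with PgLPS, 5164 to 5237 with CS-PA/CNP and 4872 to 5133 in control. CPM, the unit of level, are reads per 1000000 of a library total multiplied by its normalization factor (TMM). No dendritic, T cell or B cell marker exceeded 1.23 CPM. Of 5 neutrophil markers, Ly6g, Mpo and Elane stayed at or below 1.73 CPM, and S100a8 and S100a9 brought the sum to 121 to 134 CPM with both agents, 152 to 173 with PgLPS, 62.5 to 90.1 with CS-PA/CNP and 76.7 to 96 in control. The 6 stromal markers summed to 53.6, 10.5 and 5.88 CPM in PgLPS libraries 1, 2 and 3 and to at most 4.49 CPM elsewhere. The part of these marker differences in the results was not tested. The number of proteasome genes that rose with PgLPS was 35 with all libraries and 36 without PgLPS library 1, a count that does not address the markers of the other libraries.

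Under TMM scaling PgLPS raised most proteasome genes, while under scaling by library totals 16 of 44 rose and 8 fell. Against control, 35 of the 44 tested members rose, 2 fell (Psma8 and Psmg2) and 7 were not called (edgeR quasi-likelihood test with Benjamini-Hochberg adjustment over 11656 genes, threshold 0.05). Among all tested genes 32.2% rose and 31.6% fell. The median log2 fold change was 0.50 over the members and -0.0036 over all genes. With both agents against control, 37 members rose and 2 fell, against 29.7% and 28.4% of all genes, and the median was 0.63, against -0.0058 over all genes. These contrasts share the control libraries. In bulk RNA, a change in the share of cells of one type and a change in RNA per cell cannot be told apart.

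CS-PA/CNP alone raised fewer members and, under TMM, had a lower median, an order that library totals turned round. Against control, 13 of 44 rose, where 6.67% of all genes rose and 5.61% fell, and the median log2 fold change was 0.17, against 2.2e-05 over all genes. In edgeR 0 members fell at the adjusted threshold, 0 at an unadjusted p under 0.05, and DESeq2 also gave 0. The count of 13 was 6 without control library 1, 6 without control library 3, 9 without CS-PA/CNP library 1 or 2, and 4 without CS-PA/CNP library 3. When PgLPS was present, CS-PA/CNP changed few members: with both agents against PgLPS, 4 rose (Psmc1, Psmd7, Psmd11 and Psmd14) and 3 fell (Psma6, Psmd10 and Psme1), where 9.42% of all genes rose and 10.0% fell. The members' share of calls in each direction was close to that of all genes in this contrast. The estimates lay mostly above 0 (36 of 44 members, against 5708 of 11656 genes), with a median of 0.10 over the members and -0.0051 over all genes.

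**Figure D1:**
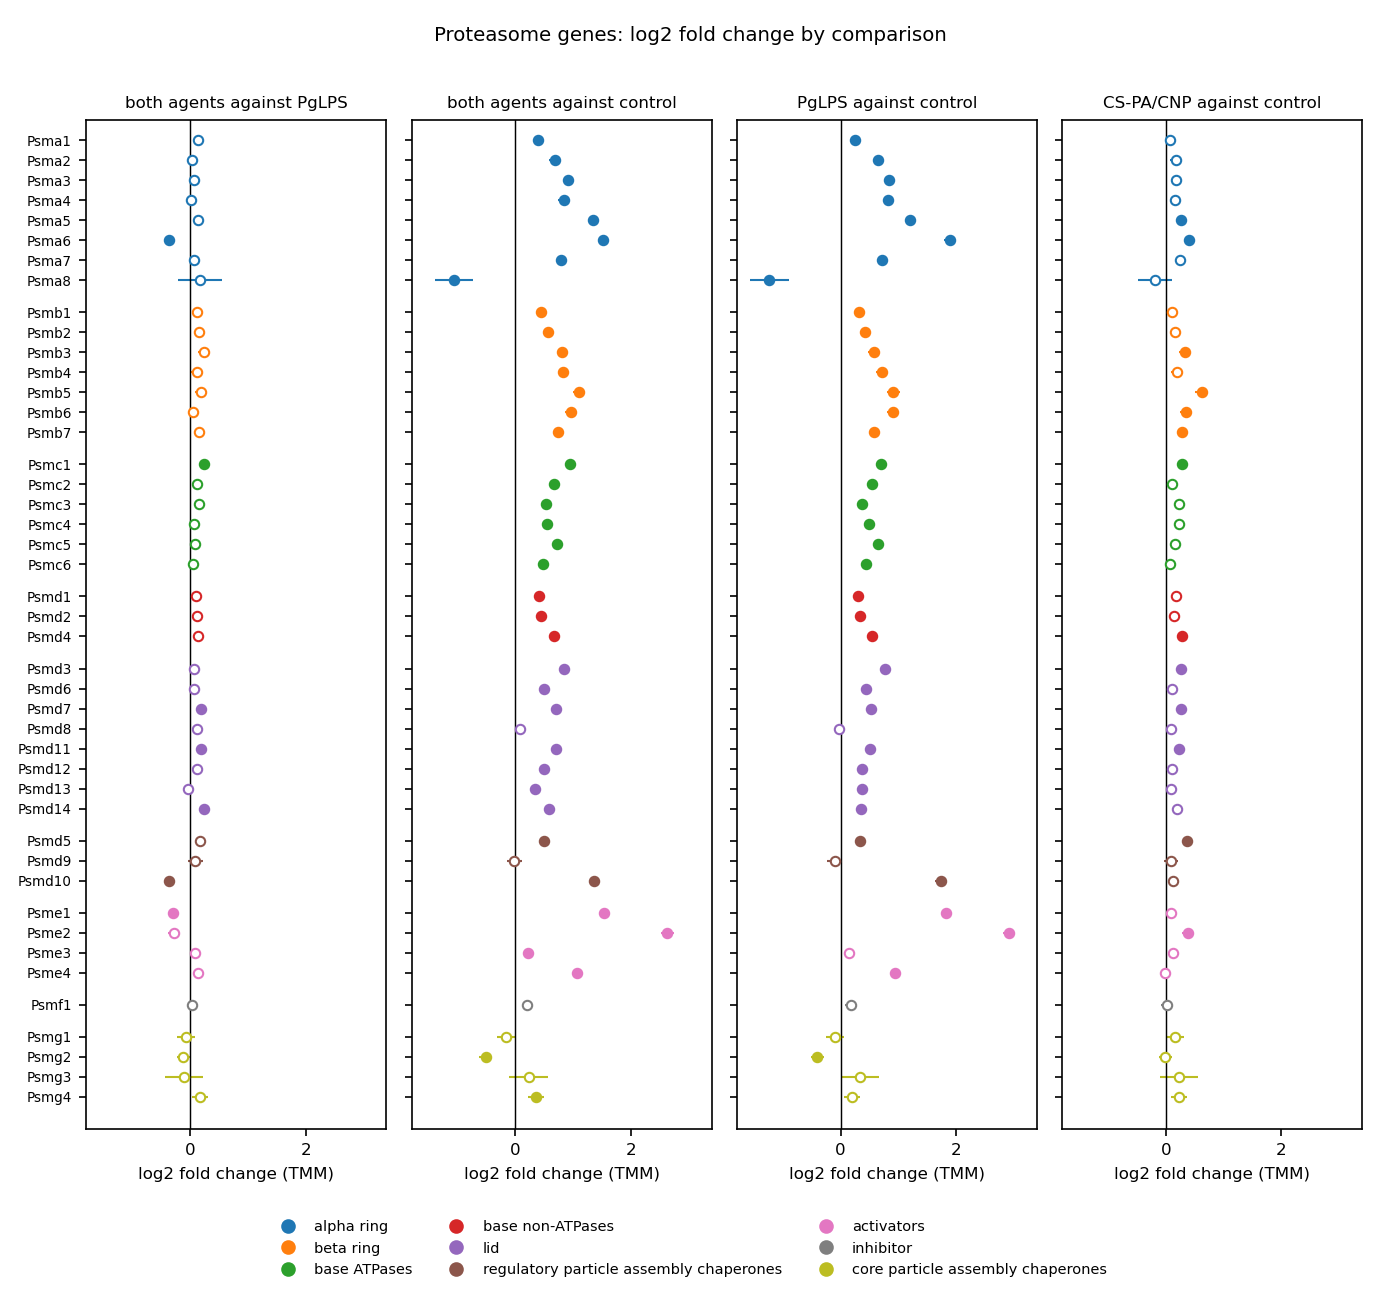
Log2 fold change (x axis, TMM scaling) of the 44 tested proteasome genes (y axis, by role) in each pairwise comparison. Points are edgeR estimates, bars are 1 standard error with 3 libraries per group, and filled points have an adjusted p under 0.05. With PgLPS against control 35 points are filled on the right, while with both agents against PgLPS 7 are filled in all; Psme2, Psma6, Psme1 and Psmd10 lie farthest right. With library totals as scaling, 10 of the 35 points would lie left of 0.

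How the libraries are scaled mattered for the small rises. TMM factors were 0.853 to 0.875 with PgLPS and 1.147 to 1.161 in control, and scaling by library totals moved the median of all genes by -0.41 (log2) in PgLPS against control. Where groups are said below to overlap or not in CPM, this refers to TMM scaling and can differ under totals. Under totals 16 members rose, 8 fell and the median was 0.09, against -0.42 over all genes. The share of calls that rose changed to 66.7% of members' calls and 21.8% of all calls under totals, against 94.6% and 50.5% under TMM. Of the 35 members that rose under TMM, 16 rose under totals, 18 were not called and Psma1 fell, with 10 estimates below 0. Of the 37 with both agents against control, 24 still rose and the estimates of Psme3, Psmd13 and Psmg4 turned below 0. For both agents against PgLPS, 10 members rose and 2 fell under totals, where 1497 of the 11656 genes rose and 940 fell. With CS-PA/CNP against control, 9 members rose and 0 fell under totals, where 611 genes rose and 845 fell. The median of that contrast was then 0.13 over the members and -0.040 over all genes, so it was no longer below the members' median of 0.09 with PgLPS, from the same control libraries.

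**Figure D2:**
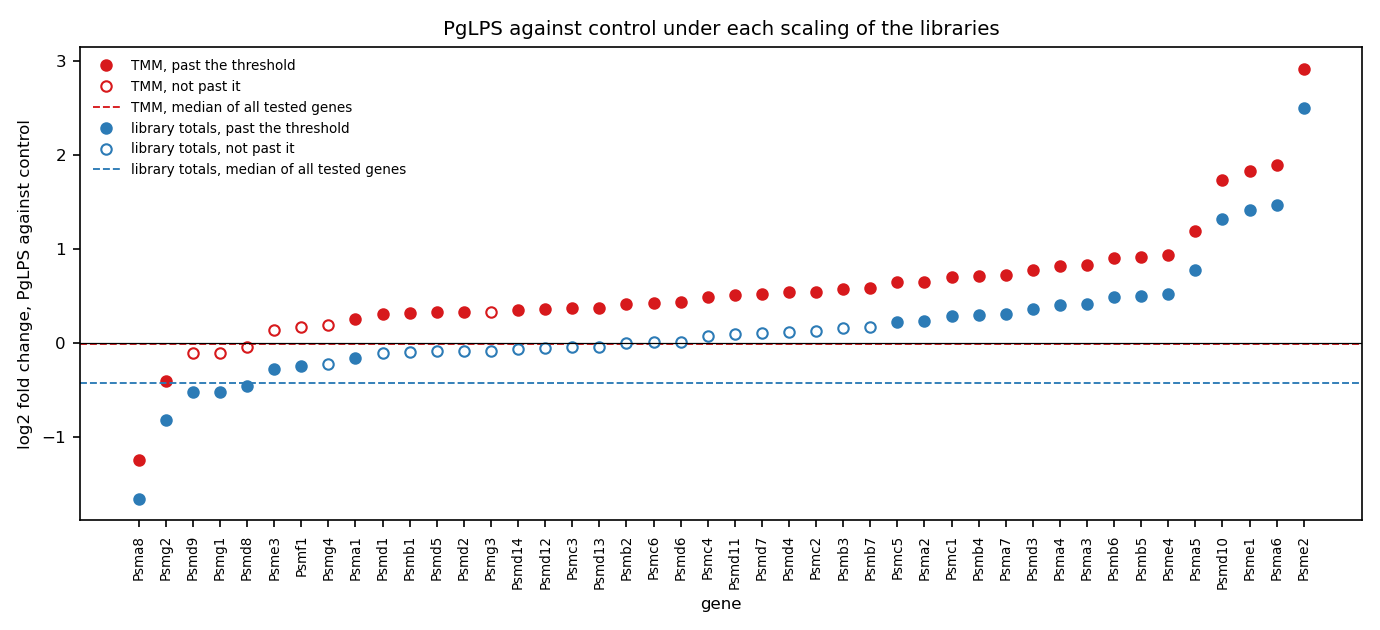
Log2 fold change of PgLPS against control (y axis) for each tested proteasome gene (x axis, ordered by the TMM estimate) under TMM and under library totals. Filled points have an adjusted p under 0.05 and dashed lines are the medians of all tested genes, -0.0036 under TMM and -0.42 under totals. The 16 genes from Psmc5 to the right stay above 0 and past the threshold under either scaling.

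The alpha ring gave the widest spread among the core subunits. Of its 8 members, 7 rose with PgLPS, with a ring median of 0.77, and Psma8 fell; under library totals 6 rose and 2 fell, as Psma1 moved to -0.16. Psma6, on chromosome 12, led. This alpha subunit had 316, 373 and 315 CPM with both agents, 384, 507 and 407 CPM with PgLPS, 150, 154 and 161 CPM with CS-PA/CNP, and 114, 123 and 114 CPM in control. No 2 groups overlapped: all PgLPS libraries lay above the libraries with both agents, and all CS-PA/CNP libraries above control. Its log2 fold change was 1.89 ± 0.09 with PgLPS against control (SE, adjusted p 1.02e-12 in edgeR) and 1.52 ± 0.09 with both agents against control (adjusted p 3.62e-11).

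CS-PA/CNP moved Psma6 in opposite directions in the presence and absence of PgLPS. The change was -0.37 ± 0.09 with both agents against PgLPS (edgeR adjusted p 0.00468) and 0.41 ± 0.09 with CS-PA/CNP against control (adjusted p 0.00432). The interaction, which subtracts the CS-PA/CNP effect in cells without PgLPS from that in cells with it, was -0.78 ± 0.13 (adjusted p 0.000177). Within each library, Psma6 made up 43.2%, 44.4% and 44.1% of the summed CPM per kb of Psma1 to Psma7 with both agents, 50.1%, 53.6% and 51.3% with PgLPS, 36.8%, 36.7% and 36.9% with CS-PA/CNP, and 33.5%, 33.9% and 32.4% in control. These shares do not depend on scaling between libraries, and their 4 groups did not overlap. Their size, and the rank of a gene per kb, do depend on the deposited gene lengths. Per kb of gene length, Psma6 was the highest of the 32 tested 26S genes in every group, with 271 CPM per kb with both agents, 351 with PgLPS, 126 with CS-PA/CNP and 94.7 in control; the medians over those 32 genes were 51.9, 48.5, 36.7 and 31.3 CPM per kb in the same 4 groups.

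Psma5, another alpha subunit, had 138, 152 and 134 CPM with both agents, 121, 140 and 123 CPM with PgLPS, 64.1, 68.3 and 68.5 CPM with CS-PA/CNP, and 51.2, 60.4 and 56.2 CPM in control. The groups with PgLPS lay well above those without, and the libraries with both agents overlapped those with PgLPS. Psma5 rose by 1.19 ± 0.08 (log2) with PgLPS against control (edgeR adjusted p 1.12e-10) and 0.26 ± 0.08 with CS-PA/CNP against control (adjusted p 0.0358). The second of these calls was lost under library totals (0.22, adjusted p 0.0668). Of its transcripts' sequence, 50% of the 50-base words also occur in other annotated transcripts, mainly Gm8394 and Gm12989, so reads could be split between them. The remaining alpha genes that rose, Psma1, Psma2, Psma3, Psma4 and Psma7, ranged from 0.26 (Psma1) to 0.83 (Psma3). Psma8, the testis form of an alpha subunit, was scarce, with 0.911, 1.21 and 1.02 CPM with both agents, 1.37, 0.65 and 0.84 CPM with PgLPS, 2.1, 1.67 and 2.1 CPM with CS-PA/CNP, and 1.78, 2.92 and 1.96 CPM in control. It fell by 1.24 ± 0.34 (log2) with PgLPS (adjusted p 0.00365) and by 1.07 ± 0.33 with both agents against control (adjusted p 0.0093, or 0.063 without control library 2).

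**Figure D3:**
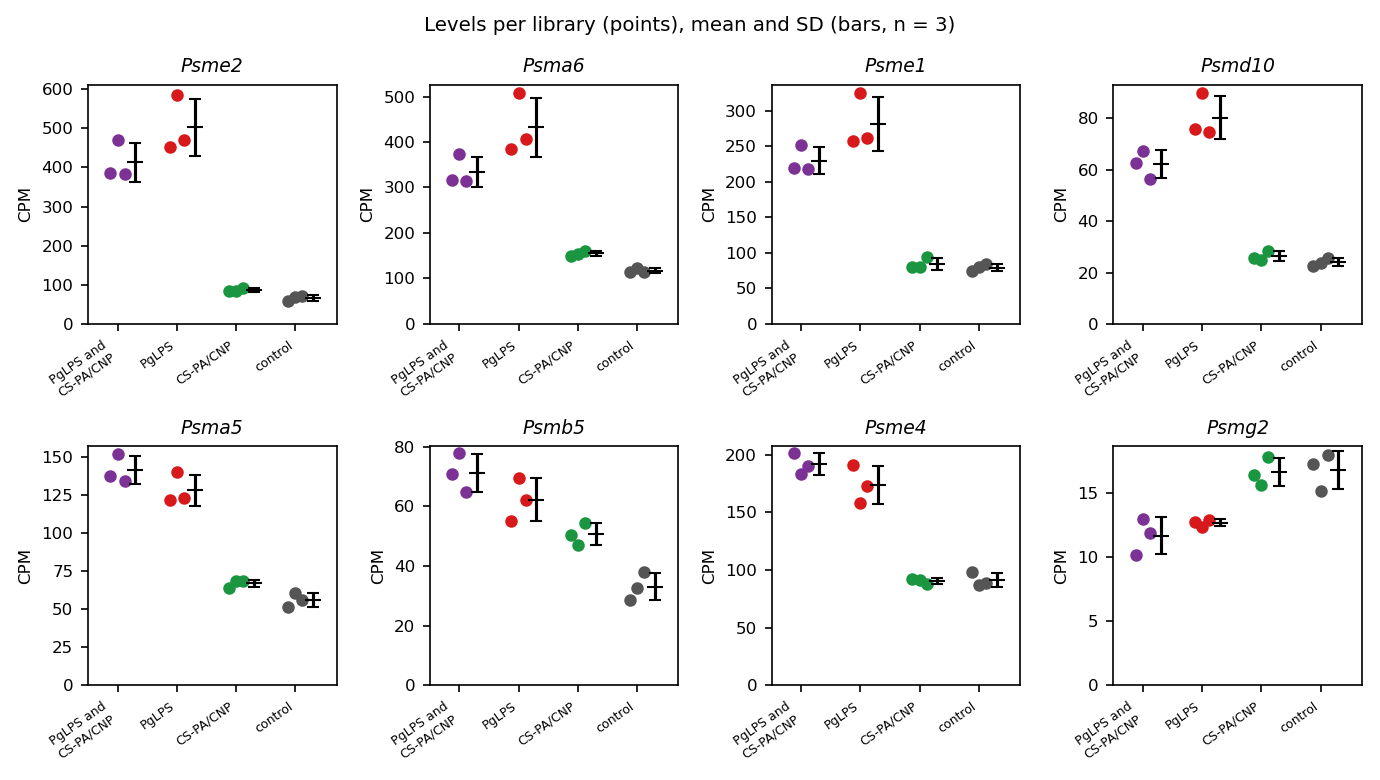
CPM (y axis) of 8 proteasome genes in each library (points) by group (x axis), with the mean and SD (bars, n = 3 libraries). Psma6, Psmd10 and Psme1 are highest with PgLPS alone, and Psmb5 is higher with CS-PA/CNP (47.1 to 54.4 CPM) than in control (28.7 to 37.9 CPM); Psmg2 is lower in the groups with PgLPS.

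All 7 tested beta subunits rose with PgLPS under TMM, with a median of 0.58; under library totals 3 rose, none of the others was called, and Psmb1 and Psmb2 were below 0. With CS-PA/CNP alone, 4 of 7 rose: Psmb3, Psmb5, Psmb6 and Psmb7, the last 3 being the catalytic subunits. Psmb5, on chromosome 14, carries the chymotrypsin-like site and had 70.8, 77.8 and 64.9 CPM with both agents, 55, 69.6 and 62.3 CPM with PgLPS, 50.6, 47.1 and 54.4 CPM with CS-PA/CNP, and 28.7, 32.7 and 37.9 CPM in control. Every treated library lay above every control library, and the libraries with both agents overlapped those with PgLPS. It rose by 0.62 ± 0.11 (log2) with CS-PA/CNP against control (edgeR adjusted p 0.000454), the largest among the 13 members that rose there, and it was called under each of 17 alternatives, from 0.52 to 0.72. It was 0.92 ± 0.11 with PgLPS against control (adjusted p 3.93e-07) and 1.11 ± 0.11 with both agents against control (adjusted p 3.39e-08). The estimate was 0.19 ± 0.10 with both agents against PgLPS (adjusted p 0.221).

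Within the beta ring, Psmb5 took 17.2%, 17.1% and 16.1% of the summed CPM per kb of Psmb1 to Psmb7 with both agents, 16%, 16.1% and 16.4% with PgLPS, 17.9%, 16.4% and 17.2% with CS-PA/CNP, and 13%, 12.8% and 15.3% in control. All 3 control libraries lay below the rest. Of the 50-base words of Psmb5, 54.1% occur in other annotated transcripts, mainly the pseudogene Gm3375, so its reads could be split with that copy.

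Psmb6, which carries the caspase-like site, had 195, 215 and 198 CPM with both agents, 169, 225 and 192 CPM with PgLPS, 122, 130 and 145 CPM with CS-PA/CNP, and 96, 113 and 103 CPM in control. Psmb6 rose by 0.90 ± 0.09 (log2) with PgLPS against control (edgeR adjusted p 7.71e-08) and 0.35 ± 0.09 with CS-PA/CNP against control (adjusted p 0.0185). The second of these calls was lost without control library 1 (0.114), control library 3 (0.0688) or CS-PA/CNP library 3 (0.129). With both agents the values overlapped those with PgLPS.

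Psmb7, which carries the trypsin-like site, had 71.9, 72.8 and 73.2 CPM with both agents, 56.7, 73 and 65.7 CPM with PgLPS, 52.7, 53.3 and 53.2 CPM with CS-PA/CNP, and 39.5, 46.4 and 44.6 CPM in control. Psmb7 rose by 0.58 ± 0.09 (log2) with PgLPS against control (edgeR adjusted p 7.82e-06), or 0.17 under library totals (adjusted p 0.0698). With CS-PA/CNP against control it was 0.29 ± 0.09 (adjusted p 0.0332), a call that was lost under totals (0.0587) and without control library 1 or 3 or any 1 of the 3 CS-PA/CNP libraries (0.0767 to 0.193). The control libraries lay below all others for both Psmb6 and Psmb7.

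The immunoproteasome subunits that can take the places of these catalytic subunits rose more with PgLPS. Psmb8, the counterpart of Psmb5, had 82.5, 102 and 80.8 CPM with both agents, 117, 129 and 101 CPM with PgLPS, 18.7, 24 and 24.1 CPM with CS-PA/CNP, and 14.9, 18.6 and 19 CPM in control. The log2 fold changes of Psmb8, Psmb9 and Psmb10 with PgLPS against control were 2.72 ± 0.13, 2.55 ± 0.11 and 2.62 ± 0.10 (SE), with adjusted p of at most 5.34e-13. The ratio of Psmb8 to Psmb5 per kb was 0.310, 0.348 and 0.331 with both agents, 0.564, 0.493 and 0.431 with PgLPS, 0.0981, 0.135 and 0.118 with CS-PA/CNP, and 0.138, 0.151 and 0.134 in control. The ratio was thus highest with PgLPS alone, and the libraries with both agents lay between those with PgLPS and those without. The size of this ratio and of those below depends on the deposited gene lengths. In CPM, without division by length, Psmb8 lay above Psmb5 in every library with PgLPS or both agents and below it in every other library. The ratio of Psmb9 to Psmb6, its counterpart, was 0.261 to 0.286 with both agents, 0.328 to 0.349 with PgLPS, 0.0892 to 0.0953 with CS-PA/CNP and 0.0997 to 0.117 in control. The ratio of Psmb10 to Psmb7 was 6.5 to 8.3 with both agents, 9.55 to 10.6 with PgLPS, 2.21 to 2.47 with CS-PA/CNP and 2.35 to 2.56 in control.

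**Figure D4:**
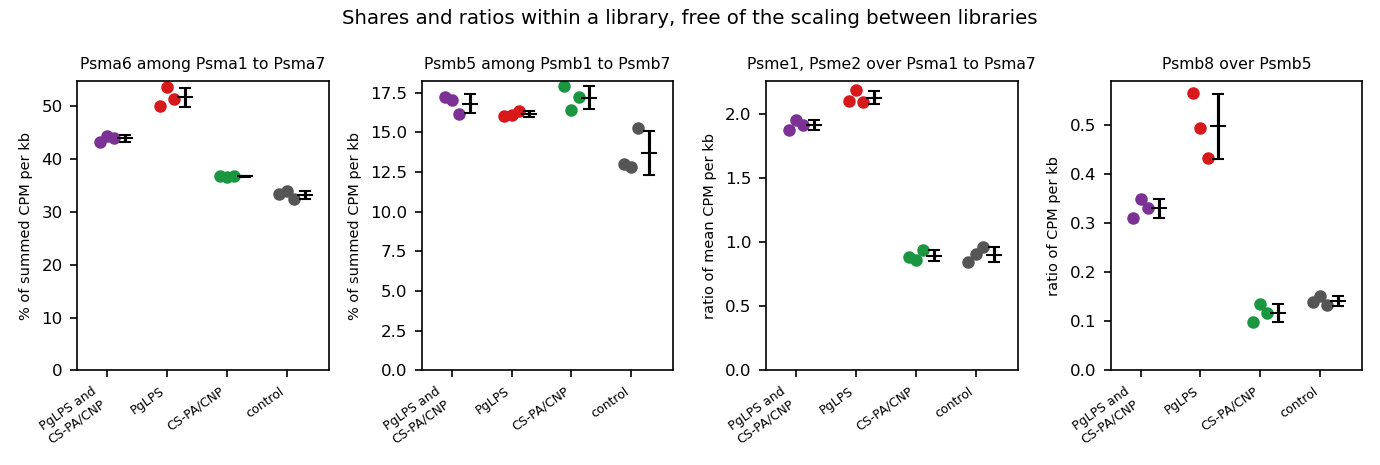
Shares and ratios within each library (points) by group (x axis), with the mean and SD (bars, n = 3 libraries); the y axes give the percent of summed CPM per kb or a ratio of CPM per kb. The share of Psma6, the ratio of PA28 to alpha subunits and the ratio of Psmb8 to Psmb5 are highest with PgLPS alone, at 50.1% to 53.6%, 2.09 to 2.19 and 0.431 to 0.564, and the share of Psmb5 is lowest in control. The size of these shares and ratios depends on the deposited gene lengths.

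The base of the regulatory particle rose with PgLPS under TMM: all 6 ATPases, with a median of 0.52, and all 3 non-ATPase subunits, with a median of 0.34. Under library totals only Psmc1 and Psmc5 of these 9 rose, the others were not called, and Psmc3, Psmd1 and Psmd2 were below 0. Psmc1, an ATPase of the base, had 214, 226 and 209 CPM with both agents, 175, 202 and 174 CPM with PgLPS, 133, 132 and 145 CPM with CS-PA/CNP, and 112, 113 and 112 CPM in control. In CPM the 4 groups did not overlap and descended in the order both agents, PgLPS, CS-PA/CNP, control. Under library totals the PgLPS and CS-PA/CNP libraries overlapped. Psmc1 rose by 0.24 ± 0.07 (log2) with both agents against PgLPS (edgeR adjusted p 0.0153), 0.71 ± 0.07 with PgLPS against control (adjusted p 2.35e-08) and 0.28 ± 0.07 with CS-PA/CNP against control (adjusted p 0.00808). The adjusted p of the first was 0.0646 without PgLPS library 1, 0.0892 without PgLPS library 3 and 0.0526 without library 2 with both agents. Psmd4, a ubiquitin receptor of the base, rose by 0.27 ± 0.08 with CS-PA/CNP against control (adjusted p 0.0423), or 0.23 under library totals (0.074). It rose by 0.54 ± 0.09 with PgLPS against control (adjusted p 1.97e-05), or 0.12 under library totals (0.174).

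In the lid, 7 of 8 subunits rose with PgLPS under TMM, with a median of 0.41. Under library totals 1 rose (Psmd3), Psmd8 fell, and Psmd12, Psmd13 and Psmd14 were below 0 without a call. Psmd8 was the 26S gene that TMM left uncalled: it had 188, 205 and 191 CPM with both agents, 162, 195 and 182 CPM with PgLPS, 190, 195 and 202 CPM with CS-PA/CNP, and 173, 192 and 188 CPM in control, and its groups overlapped. Psmd14, the enzyme that cuts ubiquitin chains from the substrate, had 116, 123 and 108 CPM with both agents, 97.5, 99.3 and 98.8 CPM with PgLPS, 87.4, 84.5 and 92.1 CPM with CS-PA/CNP, and 77.8, 80.2 and 73.5 CPM in control. In CPM the 4 groups did not overlap, but under library totals the PgLPS libraries lay below those with CS-PA/CNP and overlapped control. Psmd14 rose by 0.23 ± 0.07 with both agents against PgLPS (edgeR adjusted p 0.0153, or 0.0708 without library 2 with both agents). It rose by 0.35 ± 0.07 with PgLPS against control (adjusted p 0.000128), where library totals gave -0.06 (0.392).

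Psmd11, a scaffold subunit of the lid, had 115, 105 and 111 CPM with both agents, 94.5, 95.2 and 98.5 CPM with PgLPS, 81.5, 76.3 and 78.4 CPM with CS-PA/CNP, and 68.4, 65.2 and 68 CPM in control. Its groups did not overlap in CPM either. With PgLPS against control it rose by 0.52 under TMM, where library totals gave 0.10 (edgeR adjusted p 0.157). It rose by 0.20 ± 0.06 with both agents against PgLPS (edgeR adjusted p 0.0312), a call lost in 7 of 17 alternatives, among them leaving out any 1 PgLPS library or library 1 or 3 with both agents (0.0536 to 0.136). Psmd7, the catalytically inactive partner of Psmd14, rose by 0.18 ± 0.06 in that contrast (adjusted p 0.0463). The number of members that rose there was 1 without PgLPS library 1, PgLPS library 3 or library 2 with both agents, 2 without library 1 with both agents, and 6 without PgLPS library 2.

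The regulatory particle is built with the help of chaperones, which leave the finished particle. Psmd10, also called gankyrin and X-linked, was the one that changed most with PgLPS. It had 62.6, 67.5 and 56.4 CPM with both agents, 75.9, 89.8 and 74.8 CPM with PgLPS, 25.6, 24.7 and 28.5 CPM with CS-PA/CNP, and 22.5, 23.8 and 25.8 CPM in control. The PgLPS libraries lay above those with both agents, and both lay far above the rest. Its log2 fold change was 1.74 ± 0.09 with PgLPS against control (edgeR adjusted p 6.77e-12), -0.37 ± 0.09 with both agents against PgLPS (adjusted p 0.00623) and 0.13 ± 0.10 with CS-PA/CNP against control (adjusted p 0.477). The interaction was -0.50 ± 0.13 (adjusted p 0.0138, or 0.0607 without CS-PA/CNP library 3).

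Psmd5, another of these chaperones, had 68.6, 70.5 and 69.8 CPM with both agents, 62.7, 65 and 59 CPM with PgLPS, 66.3, 59.7 and 65.3 CPM with CS-PA/CNP, and 49.2, 49.5 and 49.3 CPM in control. Control libraries lay below all others, and CS-PA/CNP and PgLPS libraries overlapped. It rose by 0.37 ± 0.07 with CS-PA/CNP against control (edgeR adjusted p 0.000815) and by 0.33 ± 0.07 with PgLPS against control (adjusted p 0.000276), where library totals gave -0.08 (0.28). Psmd9 was not called in any comparison in the reported TMM fit, and fell by 0.52 (log2) with PgLPS against control under library totals (edgeR adjusted p 0.00121). Of its 50-base words 24.9% occur in other transcripts, mainly the antisense gene Gm26745, and, with strandedness not stated in the sources used, reads of antisense partners cannot be told apart.

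The largest rise of any member with PgLPS was in a gene for a cap that activates the core. Psme1 and Psme2 encode the alpha and beta subunits of PA28, a cap that opens the core without ATP or ubiquitin and is known as interferon-induced, and both lie on chromosome 14. Psme2 had 386, 471 and 383 CPM with both agents, 452, 585 and 470 CPM with PgLPS, 83.2, 84.1 and 92.5 CPM with CS-PA/CNP, and 57.9, 70 and 71.8 CPM in control. Libraries with PgLPS were several times higher than those without, both agents and PgLPS overlapped, and CS-PA/CNP lay above control. The rise was 2.92 ± 0.11 (log2) with PgLPS against control (edgeR adjusted p 1.75e-14) and 2.63 ± 0.11 with both agents against control (adjusted p 1.04e-13). With CS-PA/CNP against control it was 0.38 ± 0.11 (adjusted p 0.022, but 0.147 without control library 1 and 0.116 without CS-PA/CNP library 3). The estimate was -0.28 ± 0.10 with both agents against PgLPS (adjusted p 0.0542), which passed the threshold in 6 of 17 alternatives. The interaction was -0.66 ± 0.14 (adjusted p 0.00307). Of its 50-base words 28.3% occur in Psme2b, a near-identical copy, which changed by 3.01 ± 0.10 with PgLPS against control (adjusted p 3.67e-15), so the reads could be split between the copies.

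Psme1 had 219, 251 and 219 CPM with both agents, 258, 324 and 261 CPM with PgLPS, 79.7, 79.4 and 94.4 CPM with CS-PA/CNP, and 74, 80 and 83.9 CPM in control. All PgLPS libraries lay above those with both agents, and CS-PA/CNP overlapped control. Its log2 fold change was 1.83 ± 0.09 with PgLPS against control (edgeR adjusted p 2.82e-12), 1.53 ± 0.09 with both agents against control (adjusted p 5.21e-11) and 0.09 ± 0.09 with CS-PA/CNP against control (adjusted p 0.613). Set against PgLPS alone, both agents gave -0.29 ± 0.09 (adjusted p 0.0275), a call lost under library totals (0.0562), with only the compared groups in the fit (0.0643), and without PgLPS library 2 (0.14) or library 1 (0.108) or 3 (0.105) with both agents. The PA28 genes also moved apart from each other: Psme2 over Psme1 per kb was 2.21, 2.35 and 2.2 with both agents, 2.19, 2.26 and 2.25 with PgLPS, 1.31, 1.33 and 1.23 with CS-PA/CNP, and 0.98, 1.1 and 1.07 in control. Their mean over that of Psma1 to Psma7 per kb was 1.88 to 1.96 with both agents, 2.09 to 2.19 with PgLPS, 0.858 to 0.941 with CS-PA/CNP and 0.844 to 0.962 in control.

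The other activators differed from PA28. Psme4, or PA200, a large nuclear cap, had 202, 183 and 190 CPM with both agents, 191, 158 and 173 CPM with PgLPS, 92.7, 91.3 and 87.7 CPM with CS-PA/CNP, and 97.9, 86.6 and 88.5 CPM in control. It rose by 0.93 ± 0.07 with PgLPS against control (edgeR adjusted p 1.59e-09) and changed by -0.01 ± 0.07 with CS-PA/CNP against control (adjusted p 0.969). Psme3, the nuclear PA28 gamma subunit, had 124, 113 and 118 CPM with both agents, 105, 107 and 124 CPM with PgLPS, 117, 110 and 106 CPM with CS-PA/CNP, and 104, 92.7 and 108 CPM in control. Its estimate was 0.14 ± 0.08 with PgLPS against control (adjusted p 0.123) and 0.21 ± 0.08 with both agents against control (adjusted p 0.0231), and library totals turned these to -0.28 (0.00432) and -0.15 (0.0992). The call with both agents against control was also lost without control library 2 (0.14, adjusted p 0.179) and without library 1 with both agents (0.18, adjusted p 0.0955).

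Psmf1 encodes PI31, named as an inhibitor of the core. It had 32.6, 35.3 and 33.3 CPM with both agents, 31.2, 32.9 and 34.9 CPM with PgLPS, 30.7, 28.7 and 29.3 CPM with CS-PA/CNP, and 25.1, 32 and 30.7 CPM in control. It was not called in any comparison in the reported TMM fit, with estimates of 0.17 ± 0.09 with PgLPS against control (edgeR adjusted p 0.109) and 0.21 ± 0.09 with both agents against control (adjusted p 0.0657). The second of these passed the threshold with the replicate block (0.0404) and without control library 2 (0.0379). Under library totals they were -0.24 (0.0234) and -0.16 (0.125).

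Of the chaperones that assemble the core, Psmg1 to Psmg4, 0 rose and Psmg2 fell with PgLPS against control, with a median of 0.05 (log2). With CS-PA/CNP against control 0 were called, and their median was 0.19, against 0.17 for the alpha ring and 0.29 for the beta ring. Psmg2, which pairs with Psmg1 to assemble the alpha ring, had 10.2, 13 and 11.9 CPM with both agents, 12.7, 12.3 and 12.9 CPM with PgLPS, 16.4, 15.6 and 17.7 CPM with CS-PA/CNP, and 17.2, 15.1 and 17.9 CPM in control. All libraries with PgLPS lay below all without. It fell by 0.40 (log2, SE 0.11) with PgLPS against control (edgeR adjusted p 0.00513) and by 0.52 (SE 0.12) with both agents against control (adjusted p 0.000777). Psmg4 rose by 0.36 ± 0.14 with both agents against control (adjusted p 0.0355), where library totals gave -0.00068 (0.997). Psmg1 and Psmg3 were not called in any comparison in the reported TMM fit, but library totals gave -0.51 for Psmg1 with PgLPS against control (0.00464). Psmg3 was low, at 1.82 to 5.33 CPM.

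The effect of CS-PA/CNP depended on PgLPS for 3 members. The interaction fell for Psma6, Psme2 and Psmd10 and in edgeR rose for 0 members (0 at an unadjusted p under 0.05, and 0 with DESeq2), where 8.34% of all genes fell and 7.46% rose. The members' share of falls was thus close to that of all genes. The median over the members was -0.083, against -0.0058 over all genes, and under library totals 0.0093, against 0.087, with the same number of calls. Among the immunoproteasome genes the interaction was -0.73 ± 0.17 for Psmb8 (adjusted p 0.00553), -0.53 ± 0.14 for Psmb10 (0.0133) and -0.35 ± 0.14 for Psmb9 (0.127). For Psmb5 it was -0.43 ± 0.15 (0.0577) and for Psme1 -0.39 ± 0.13 (0.0517), both of which passed the threshold in DESeq2 (0.0468 and 0.0391).

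Other genes of the proteasome system were read from a list of 31 tested genes. With PgLPS against control 18 rose and 7 fell, with a median of 0.26, where 32.2% of all genes rose and 31.6% fell. Under library totals 6 rose and 15 fell, with a median of -0.16, where 1945 of the 11656 genes rose and 6963 fell, with a median of -0.42. With both agents against control 17 rose and 5 fell, where 29.7% of all genes rose and 28.4% fell. Under totals 9 rose and 13 fell in that contrast, where 1808 of the 11656 genes rose and 6683 fell. With both agents against PgLPS 4 rose and 3 fell (9.42% and 10.0% of all genes), and under totals 5 and 3. With CS-PA/CNP against control 4 rose (6.67% of all genes), and under totals 2 rose and 1 fell, where 611 genes rose and 845 fell. Nfe2l1 encodes NRF1, the transcription factor known to raise proteasome genes when the proteasome is impaired. It had 372, 360 and 395 CPM with both agents, 457, 463 and 472 CPM with PgLPS, 234, 222 and 213 CPM with CS-PA/CNP, and 205, 212 and 205 CPM in control. Its 4 groups did not overlap. Its log2 fold change was 1.16 ± 0.06 with PgLPS against control (edgeR adjusted p 9.66e-13), -0.30 ± 0.06 with both agents against PgLPS (adjusted p 0.000463) and 0.10 ± 0.06 with CS-PA/CNP against control (adjusted p 0.272), and the interaction was -0.41 ± 0.08 (adjusted p 0.000933).

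Uba1, the main enzyme that activates ubiquitin, rose by 1.13 ± 0.06 with PgLPS against control (edgeR adjusted p 1.25e-12) and fell by 0.22 with both agents against PgLPS (SE 0.05, adjusted p 0.00602). Vcp, the ATPase that extracts ubiquitinated proteins for the proteasome, rose by 0.38 ± 0.05 with CS-PA/CNP against control (adjusted p 2.76e-05) and by 0.25 ± 0.05 with both agents against PgLPS (adjusted p 0.00123). Adrm1, a ubiquitin receptor of the 19S particle that the symbol rule leaves out, rose by 0.44 ± 0.09 with CS-PA/CNP against control (adjusted p 0.00296). Nfe2l2, which encodes NRF2, fell by 0.31 with both agents against PgLPS (SE 0.06, adjusted p 0.000489), with an interaction of -0.40 ± 0.08 (adjusted p 0.00119).

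Promoter sequence was compared because many members moved together. RefSeq windows on GRCm38.p6, from 250 bases before to 50 after a gene start, were found for 37 of the 45 members and searched on both strands. The core of the antioxidant response element, TGANNNNGC, which NRF1 and NRF2 bind with small MAF proteins, was present in 21 members (56.8%) and in 45% of 27025 genes. The NF-Y box CCAAT was present in 13 members (35.1%) and in 41.1% of genes. A short motif matches many windows by its letters alone, and a match does not show binding.

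The core of the interferon-stimulated response element, GAAA, then 2 bases of any kind, then GAAA, was present in 5 members (13.5%) and in 3.99% of genes. The 5 stretches are shown because the genes that hold them differed in their response to PgLPS; no motif share was tested against that of all genes. Capitals mark the motif, which reads as TTTC on the opposite strand.
Psmb3 (chr11:97703261-97703290, plus strand): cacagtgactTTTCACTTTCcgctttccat
Psmd4 (chr3:95042675-95042704, minus strand): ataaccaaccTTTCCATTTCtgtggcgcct
Psmd9 (chr5:123228021-123228050, plus strand): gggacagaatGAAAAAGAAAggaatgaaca
Psme1 (chr14:55578493-55578522, plus strand): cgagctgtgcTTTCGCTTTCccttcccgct
Psmg4 (chr13:34162969-34162998, plus strand): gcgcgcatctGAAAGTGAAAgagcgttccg
The first capital lies 163, 80 and 159 bases upstream of the start for Psmb3, Psmd4 and Psmd9, and 10 and 16 bases downstream for Psme1 and Psmg4. With PgLPS against control Psme1 rose by 1.83, Psmb3 by 0.57 and Psmd4 by 0.54 (log2), while Psmg4 was at 0.20 ± 0.14 (edgeR adjusted p 0.244) and Psmd9 at -0.11 ± 0.13 (adjusted p 0.486). Psme2 and Psma6, which had the largest rises along with Psme1, had no such letters in their windows.

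The promoter of Psmb5 is shown because this gene rose most with CS-PA/CNP alone. It is the 250 bases before the RefSeq start, chr14:54617996-54618245 on the minus strand of GRCm38.p6, and capitals mark an antioxidant core that begins 47 bases before the start. A further match in the window lies after the start and is not shown.
Psmb5 promoter: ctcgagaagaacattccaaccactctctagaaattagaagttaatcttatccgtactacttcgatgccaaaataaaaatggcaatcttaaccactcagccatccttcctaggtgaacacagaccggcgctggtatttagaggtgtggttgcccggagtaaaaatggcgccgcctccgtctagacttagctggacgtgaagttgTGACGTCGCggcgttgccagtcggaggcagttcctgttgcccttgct
Of the other 12 members that rose with CS-PA/CNP alone, Psma5, Psma6, Psmb3, Psmb6, Psmd5 and Psme2 also held that core, Psmc1, Psmd4 and Psmd11 did not, and Psmb7, Psmd3 and Psmd7 had no window. Psma6 and Psme2 had 2 windows each. The core was present in 56.8% of all members with a window and in 45% of all genes, and no link to the response was tested.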

How the data were processed

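RNA sequencing counts of 12 macrophage libraries, 3 per group, were used. The authors deposited 1 table of read counts per gene, whole numbers without normalization, beside FPKM values and a gene length. The 12 deposited FPKM columns were not used, and the gene length divides the levels per kb. Ranks, shares and ratios between genes per kb therefore depend on that length. Tools named in the submitters' processing notes are DESeq 1.30.0, HTSeq 0.9.1, HISAT2 2.0.5 and cutadapt 1.15, with no role. Per the labels' protocols, fragments of 400 to 500 bp were amplified in 15 PCR cycles. Not given in the sources used here: strandedness, genome build, annotation. Columns were assigned to groups by the letters in their names (C, M, L, LM).

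All 12 libraries entered 1 quasi-likelihood fit in edgeR 4.0.16 (R 4.3.3), with a mean per group, TMM, filterByExpr by group (11656 genes with 99.97% of reads) and 2-sided Benjamini-Hochberg adjusted p-values over those genes, threshold 0.05. This code was tested on simulated counts in which few genes changed, only in the PgLPS group, so that test does not address how the libraries are scaled. Errors (±) of log2 fold changes are standard errors derived from this fit, as the absolute log2 fold change over the square root of its quasi-likelihood F statistic. The 5 comparisons were PgLPS, CS-PA/CNP and both agents, each against control, both agents against PgLPS, and the interaction.

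Alternatives were library totals, DESeq2 1.42.0, no filter, only the compared groups, a 1.5-fold minimum, a replicate block, and leaving out each library. Replicates are called biological in the labels, with no mention of separate animals or cultures, so p-values measure only the spread among the libraries, which may be technical. Chi-square per gene between libraries of a group was 2.78 to 17.9, so no pair agreed within sampling noise. The members, role groups, other lists and motifs were chosen with earlier results of these data known. A further motif that was searched is not reported here, a choice not made on its values. Values per library were given for the 3 largest rises and falls among called members of each comparison, and for Psmb5, Psmb6, Psmb7, Psme1 to Psme4, Psmf1, Psmb8 and Nfe2l1. Psmd5, Psmd8 and Psma5 were added to these after their values were seen. From the list of 31 other genes, the text names genes among the 3 with the smallest adjusted p in a comparison. Shared sequence was counted as 50-base words over annotated transcripts of GRCm38.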

Additional observations from a re-analysis of the deposited data

Results flagged for a closer look

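For 3 proteasome genes the effect of CS-PA/CNP differed with and without PgLPS, by the interaction test in edgeR with adjustment over all tested genes. Among all tested genes 8.34% fell and 7.46% rose in that test, so the members' share of falls was close to that of all genes. The difference for Psma6 was -0.78 (log2, SE 0.13, adjusted p 0.000177), and its 3 libraries with both agents lay below the 3 with PgLPS, while its 3 with CS-PA/CNP lay above control. For Psme2 it was -0.66 (SE 0.14, adjusted p 0.00307), with effects of -0.28 with PgLPS and 0.38 without. For Psmd10 it was -0.50 (SE 0.13, adjusted p 0.0138), with effects of -0.37 with PgLPS and 0.13 without. Psma6 and Psme2 passed the threshold in 16 of 16 alternatives and Psmd10 in 15, the exception being the fit without CS-PA/CNP library 3 (adjusted p 0.0607). The causes were not tested.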

How the results depend on the processing

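With PgLPS against control, 35 members rose and 2 fell with DESeq2, no filter, only the compared groups and the replicate block, 16 rose and 1 fell at a minimum of 1.5-fold, and 16 rose and 8 fell under library totals. Both agents against control gave 23 rises and 1 fall at 1.5-fold and 24 rises and 5 falls under totals. Under totals 1808 of the 11656 genes rose and 6683 fell in that contrast, and 1945 rose and 6963 fell with PgLPS against control. Calls over all genes were counted only for the fit as reported and for library totals, so counts under the other alternatives have no such share beside them. With both agents against PgLPS, 4 rose and 3 fell in the fit as reported, 0 and 0 at 1.5-fold, 10 rose under totals, and 2 rose with only the compared groups. With CS-PA/CNP against control, 1 rose at 1.5-fold. The falls in the interaction numbered 5 with DESeq2 and 5 with no filter. Under library totals Psme3 turned to -0.28 with PgLPS against control, -0.15 with both agents against control and 0.045 in the interaction, and Psmf1 turned to -0.24 with PgLPS against control, -0.026 with CS-PA/CNP against control and -0.16 with both agents against control; the totals leave out the TMM factors, which differ between the groups.

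Whether column numbers pair libraries was not settled. Of 18 pairs with the same number, correlations of deviations from group means ran from -0.068 to 0.22, 4 were over 0.1, and not every library correlated best with its own number. Among pairs with different numbers they ran from -0.19 (control library 1 and PgLPS library 2) to 0.11 (control library 1 and PgLPS library 3). With the replicate block 20 members rose with CS-PA/CNP against control and 6 fell in the interaction, against 13 and 3 without it.

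Leaving out 1 library at a time, rises with both agents against PgLPS ranged from 1 to 6, rises with CS-PA/CNP against control from 4 to 16, falls with both agents against control from 1 (without control library 2) to 2, and falls in the interaction from 2 to 6 (6 without PgLPS library 1, 5 without library 2 with both agents, 2 without CS-PA/CNP library 3). Estimates near 0 changed sign: with both agents against PgLPS Psmb6 ranged from -0.040 to 0.17 and Psmf1 from -0.0071 to 0.074; with CS-PA/CNP against control Psme1 from -0.00088 to 0.13, Psme4 from -0.050 to 0.042, Psmf1 from -0.092 to 0.076 and Psmb9 from -0.0060 to 0.17; in the interaction Psme3 from -0.093 to 0.032 and Psmf1 from -0.039 to 0.13. None of these was called. The cause of these changes was not tested beyond the fewer libraries of each fit.

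Low counts limit Psma8 and Psmg3 most, and Psmb11 was not testable. The 19 rises with PgLPS that library totals ended were 0.26 (Psma1) to 0.58 (Psmb7) on the log2 scale under TMM, and the 16 that held were 0.65 (Psmc5) or more.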

Other observations

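Neighbours of the members that changed most are given here as values, chosen after their values were seen. In the order of RefSeq genes, Psma6 lies between Prorp and Nfkbia, which encodes the NF-kB inhibitor IkB-alpha. Nfkbia had 414, 409 and 413 CPM with both agents, 610, 682 and 617 CPM with PgLPS, 187, 183 and 189 CPM with CS-PA/CNP, and 79, 91.4 and 92.5 CPM in control. Its 4 groups did not overlap and stood in the same order as those of Psma6. Its log2 fold change was 2.86 ± 0.07 with PgLPS against control (edgeR adjusted p 1.92e-17), -0.63 ± 0.06 with both agents against PgLPS (adjusted p 6.13e-07) and 1.09 ± 0.07 with CS-PA/CNP against control (adjusted p 1.47e-09), with an interaction of -1.71 ± 0.09 (adjusted p 2.3e-10). Prorp, a subunit of mitochondrial RNase P, was at 7.5 to 11.9 CPM in all libraries and fell by 0.34 with PgLPS against control (SE 0.13, adjusted p 0.0321). No relation between Psma6 and its neighbours was tested.

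Psme1, Emc9, Psme2, Rnf31 and Irf9 follow each other on chromosome 14. Rnf31, a subunit of the linear ubiquitin ligase, rose by 1.54 ± 0.07 with PgLPS against control (edgeR adjusted p 6.6e-13), and Irf9, an interferon signalling factor, rose by 1.25 ± 0.06 (adjusted p 1.04e-12). Emc9, which lies between the PA28 genes, was at -0.15 ± 0.19 in the same contrast (adjusted p 0.508), at 5.49 to 9.42 CPM with PgLPS and 7.07 to 10.6 CPM in control.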
